A study of Mus musculus with 4 samples.

Results

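The genes described here are the inflammatory cytokines Il1a, Il1b, Il6, Il11, Il18, Il33, Tnf and Lif, the interleukin-1 receptor antagonist Il1rn and the inducible cyclooxygenase Ptgs2. They were chosen by name, and every probe set (the group of short probes that reads 1 transcript on an Affymetrix array) whose only annotated symbol was one of these 10 genes was taken. This gave 14 probe sets of the 45037 on the array other than controls, and 10 of the 18193 genes with a probe set of their own. Il1rn had 3 probe sets, Lif and Ptgs2 had 2 each, and the other genes had 1.

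The Eph_EN_DN group held 2 mammary tumours that grew in nude mice after transplantation of Eph4 cells expressing the fusion oncogene ETV6-NTRK3 together with TAM67, a dominant negative form of the AP-1 subunit c-Jun. The Eph_EN group held 2 tumours from Eph4 cells with ETV6-NTRK3 alone, so the fusion, the cell line and the host were common to both groups. Eph4 is an established mouse mammary epithelial cell line, and nude mice lack a thymus and so most T cells but keep macrophages, neutrophils and natural killer cells. The comparison addressed how far tumour formation by the fusion depends on AP-1. Whole tumours were measured, so fewer cells of a type and less RNA per cell cannot be told apart. The labels give each tumour a number and do not say which animal or cell culture it came from, so the p-values here reflect only how far these samples lie apart, which may be technical. Of 10 mammary epithelial markers, 6 read above the array median on all 4 arrays, among them Krt8, a keratin of luminal cells, at 1596 and 1470 intensity units in Eph_EN_DN tumours against 2048 and 2017 in Eph_EN tumours. Krt19 read below the median on every array.

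IL-1 alpha and IL-1 beta bind one receptor, which signals through Myd88 to the transcription factor NF-kappaB, and the antagonist encoded by Il1rn occupies that receptor without signalling. IL-18 and IL-33 use related receptors and Tnf its own, while IL-6, IL-11 and LIF share the receptor subunit gp130 (Il6st) and activate STAT3. Ptgs2 makes the precursor of the prostaglandins. Genes of this kind are induced in macrophages, fibroblasts and epithelial cells during inflammation, and AP-1 and NF-kappaB sites are known in several of their promoters.

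Of the 14 probe sets, 3 were clearly above background on every array, and none differed past the threshold between Eph_EN_DN and Eph_EN tumours. Il1b read lower in both Eph_EN_DN tumours than in either Eph_EN tumour, Il33 read higher in both, and Il18 read slightly lower, each short of the threshold. Background was read from 27 control probe sets for bacterial genes, which see mouse RNA only by unspecific binding. The highest of these read 34.7 and 50.5 units in Eph_EN_DN tumours 1 and 2, against 46.1 and 40.8 in Eph_EN tumours 1 and 2, and array medians were 38.1 and 40.8 in Eph_EN_DN tumours against 35.6 and 35.9 in Eph_EN tumours. Whether bacterial transcripts were added to the samples is a point the available labels do not give. Il1b, Il18 and Il33 exceeded the highest bacterial control on all 4 arrays, 4 probe sets did so on some arrays (1 each of Il1rn, Il6, Lif and Ptgs2) and 7 on none.

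Each group had n = 2 tumours. Differences are Eph_EN_DN minus Eph_EN in log2(intensity + 16), and folds are of intensity + 16. The p-values are from limma fitted to all 45037 probe sets and adjusted by the Benjamini-Hochberg method. At an adjusted p under 0.05, 0 of the 14 probe sets were called in either direction, where 0.335% of all probe sets were called, 0.0799% higher and 0.255% lower in Eph_EN_DN tumours. At an unadjusted p under 0.05 there were 2 (Il1b and Il33), where 7.88% of all probe sets were. The groups did not overlap in 4 of the 14 (Il1b, Il18, Il33 and 1 probe set of Ptgs2), a share close to the 37.3% of all probe sets without overlap. The median difference was 0.012 over the 14 and 0.059 over all probe sets, with 7 of the 14 above 0 and 7 below, where 43.6% of all probe sets were below. In 11 of the 14, the tumours of 1 group lay farther apart than the group means did.

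**Figure D1:**
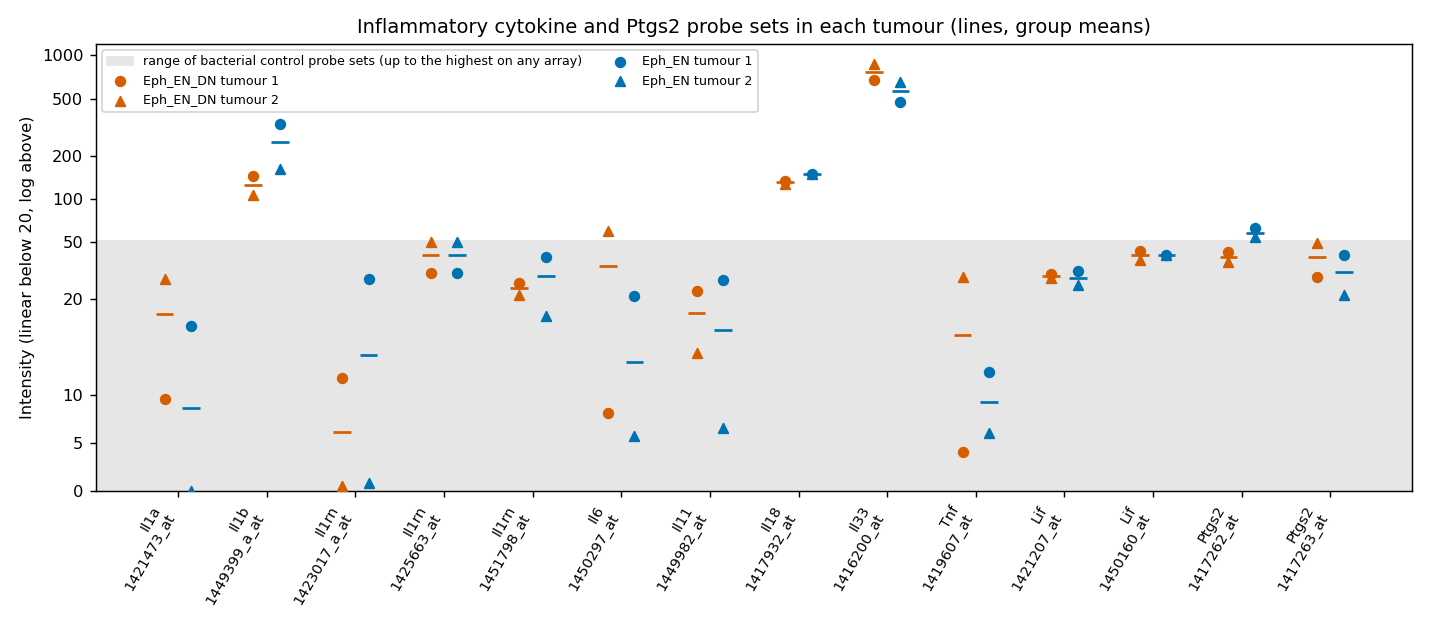
Intensity of each probe set in each tumour, with Eph_EN_DN tumours left of Eph_EN tumours, short lines for group means (n = 2) and the grey band up to the highest bacterial control on any array, 50.5 units. The axis is linear below 20 and logarithmic above. Il1b, Il18 and Il33 lie above the band in all tumours, and most other points lie inside it.

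Il1b encodes IL-1 beta, made mainly by macrophages as an inactive precursor that caspase-1 cleaves. Its probe set read 144 and 106 units in Eph_EN_DN tumours, against 333 and 162 in Eph_EN tumours. Both Eph_EN_DN tumours were lower than either Eph_EN tumour, but the Eph_EN tumours lay wider apart than the nearest tumours of the 2 groups. The difference was -0.83 ± 0.26 (SE), a fold of 0.562 with a 95% interval of 0.385 to 0.820 that is not adjusted for the number of probe sets, and it did not pass (limma adjusted p = 0.319). Of all probe sets, 4.90% had a larger difference in either direction. The value moved most with the Eph_EN tumours. Without Eph_EN tumour 1 the difference was -0.34. Without Eph_EN tumour 2, the one nearer to the Eph_EN_DN tumours, it was -1.32. Leaving out Eph_EN_DN tumour 1 or 2 gave -1.03 or -0.64.

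Macrophage markers were measured beside Il1b. Of 14 markers, 11 had negative differences and 0 were called, with a median of -0.39. Their summed level was 13256 and 10584 units in Eph_EN_DN tumours, against 19475 and 16549 in Eph_EN tumours, so the groups did not overlap, and no marker was at 0. Neutrophil markers, the other rich source of IL-1 beta, summed to 455 and 270 units in Eph_EN_DN tumours against 379 and 374 in Eph_EN tumours, with 5 of 7 negative and 0 called. Camp was listed at 0 in Eph_EN_DN tumour 2. The part of these cells in the Il1b values was not tested.

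Il33 encodes an alarmin that epithelial, endothelial and stromal cells store in the nucleus and release when damaged. It read 671 and 871 units in Eph_EN_DN tumours, against 475 and 648 in Eph_EN tumours. Both Eph_EN_DN tumours were above either Eph_EN tumour, the nearest pair by only 671 against 648 units. The difference was 0.45 ± 0.20 (SE), a fold of 1.37 with a 95% interval of 1.03 to 1.81, and it did not pass (limma adjusted p = 0.568). Without each tumour in turn the difference was 0.23 to 0.67. As the groups did not overlap, leaving out 1 tumour could not turn its sign. Fibroblast markers, in contrast, summed to 17028 and 14707 units in Eph_EN_DN tumours against 19048 and 25894 in Eph_EN tumours, with 8 of 9 negative and Lum, which encodes lumican, called lower. Endothelial markers summed to 368 and 450 units in Eph_EN_DN tumours against 493 and 670 in Eph_EN tumours, with 6 of 7 negative and 0 called. Mammary epithelial markers summed to 2951 and 3210 units in Eph_EN_DN tumours against 3575 and 3819 in Eph_EN tumours, with 6 of 10 negative and 0 called. Epidermal keratinocyte markers summed to 209 and 192 units in Eph_EN_DN tumours against 157 and 157 in Eph_EN tumours. Their median was 0.24, with 5 of 7 positive, 2 negative and 0 called, where 46.3% of all genes were negative. These markers were dim: 5 of the 7 lay below the median of every array and 0 above it on all 4. No marker of these 4 lists was at 0, and their part in the Il33 values was not tested.

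Il18 encodes another cytokine that caspase-1 activates and that epithelial cells hold ready without induction. It read 133 and 128 units in Eph_EN_DN tumours, against 149 and 148 in Eph_EN tumours. The tumours of each group lay close together and the groups did not overlap. The difference of -0.17 ± 0.22 (SE, limma adjusted p = 0.903) was nevertheless small, and its 95% interval of 0.647 to 1.22 fold does not reach a 2-fold change in either direction.

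Il1a, which encodes the IL-1 form active without cleavage, stayed within the bacterial control range on every array. It read 9.52 and 27.5 units in Eph_EN_DN tumours, against 17.2 in Eph_EN tumour 1 and a listed 0 in Eph_EN tumour 2. The groups overlapped (0.53 ± 0.49, SE, limma adjusted p = 0.851). The value moved with single tumours: it was 0.0040 without Eph_EN tumour 2, the one listed at 0, and 1.058 without Eph_EN tumour 1, and a pseudocount of 1 gave 2.02. Tnf, the macrophage cytokine that gives its family the name, read 3.99 and 28.4 units in Eph_EN_DN tumours against 12.4 and 6.00 in Eph_EN tumours, again with overlap and never above the bacterial controls (0.25 ± 0.48, adjusted p = 0.939).

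The 3 probe sets of Il1rn gave no common pattern. The first (1423017_a_at) read 11.8 and 0.481 units in Eph_EN_DN tumours, against 27.6 and 0.826 in Eph_EN tumours. The second (1425663_at) read 30.5 and 50.2 in Eph_EN_DN tumours against 30.5 and 50.4 in Eph_EN tumours, and the third (1451798_at) read 26.0 and 21.5 in Eph_EN_DN tumours against 39.5 and 18.3 in Eph_EN tumours. Groups overlapped in each of them. Differences were -0.34, -0.0027 and -0.14 (SE 0.52, 0.35 and 0.39), with adjusted p-values of 0.920 to 1.000 in limma. Eph_EN_DN tumour 2 and Eph_EN tumour 2 were the brighter ones in the second probe set and the dimmer ones in the other two.

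The cytokines that signal through gp130 were at or near background. Il6, the main inducer of STAT3 in inflammation, read 8.10 and 60.2 units in Eph_EN_DN tumours, against 21.1 and 5.71 in Eph_EN tumours. Only the 60.2 of Eph_EN_DN tumour 2 exceeded the highest bacterial control of its array, and the other Eph_EN_DN tumour lay between the Eph_EN tumours (0.59 ± 0.49, SE, limma adjusted p = 0.827). Without Eph_EN_DN tumour 2 the difference was -0.24.

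Il11, a cytokine of stromal and epithelial cells, read 22.8 and 14.4 units in Eph_EN_DN tumours against 27.0 and 6.53 in Eph_EN tumours, below the array medians throughout (0.14 ± 0.45, limma adjusted p = 0.969). Lif, known for holding embryonic stem cells undifferentiated and for its part in mammary involution, had steadier readings. One probe set (1450160_at) read 43.5 and 37.6 units in Eph_EN_DN tumours against 40.6 and 40.6 in Eph_EN tumours, and the other (1421207_at) 30.1 and 27.9 in Eph_EN_DN tumours against 31.6 and 25.01 in Eph_EN tumours. Their differences were -0.0037 ± 0.33 and 0.027 ± 0.37 (SE), and the groups overlapped in both. The sign of the second turned with quantile normalization (-0.082) and with each array centred on its median (-0.072).

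**Figure D2:**
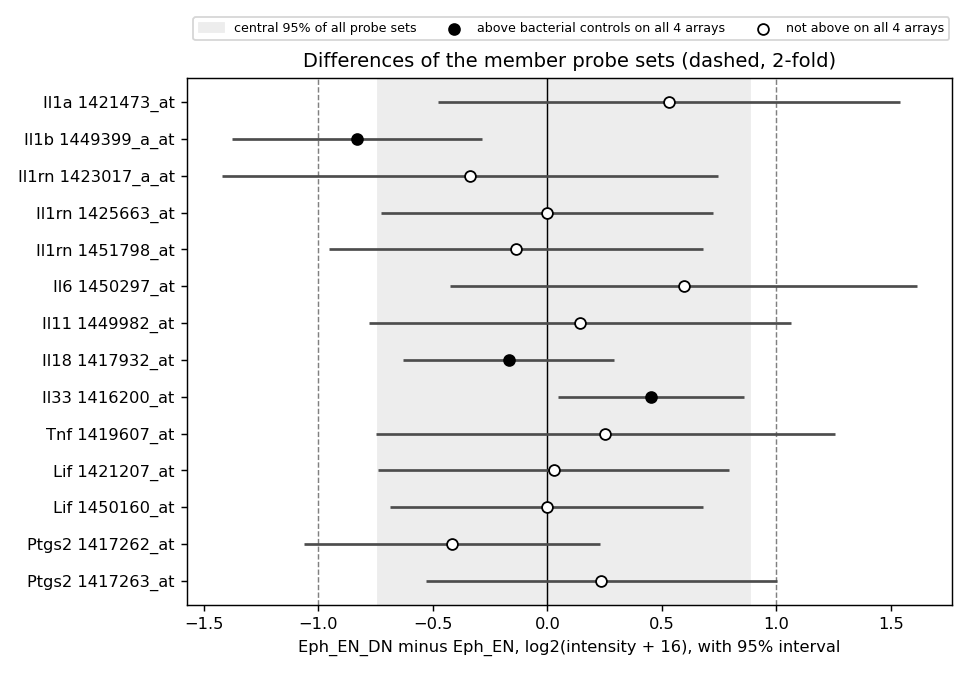
Difference Eph_EN_DN minus Eph_EN of each probe set in log2(intensity + 16), with its 95% interval from limma. Filled points exceeded the bacterial controls on all 4 arrays, and the grey band holds the central 95% of all probe sets. Dashed lines mark 2-fold of intensity + 16. The interval of Il1b lies below 0 and that of Il33 above it, before any adjustment, and the other 12 include 0.

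Ptgs2, also called COX-2, is the inducible enzyme of prostaglandin synthesis and an early response gene of growth factors and cytokines. Its 2 probe sets went apart. One (1417262_at) read 42.9 and 36.3 units in Eph_EN_DN tumours, against 62.5 and 53.9 in Eph_EN tumours, with no overlap. The difference was -0.42 ± 0.31 (SE), a fold of 0.749 with a 95% interval of 0.478 to 1.17 (limma adjusted p = 0.807). This probe set was above the highest bacterial control on 3 arrays, all but Eph_EN_DN tumour 2. The other (1417263_at) read 28.8 and 49.5 units in Eph_EN_DN tumours, against 40.3 and 21.5 in Eph_EN tumours, within the bacterial control range on each array and with overlapping groups (0.24 ± 0.37, SE, adjusted p = 0.922).

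Over the 14 probe sets, 8 intervals reached a 2-fold change in at least 1 direction, so such a change was within the error there. Il1b was among them, though above the bacterial controls on all 4 arrays, and its interval held only lower values in Eph_EN_DN tumours. The intervals of Il18 and Il33 did not reach a 2-fold change, nor did those of both Lif probe sets and of 2 Il1rn probe sets. In these dim Lif and Il1rn probe sets a 2-fold change of intensity itself is a smaller step on this scale. A 2-fold drop of intensity was thus within the error for them too. Of the 14, 8 would be kept by leaving out the dimmest 40% of probe sets. The 6 that would not are those of Il1a, Il6, Il11 and Tnf and 2 of Il1rn.

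**Figure D3:**
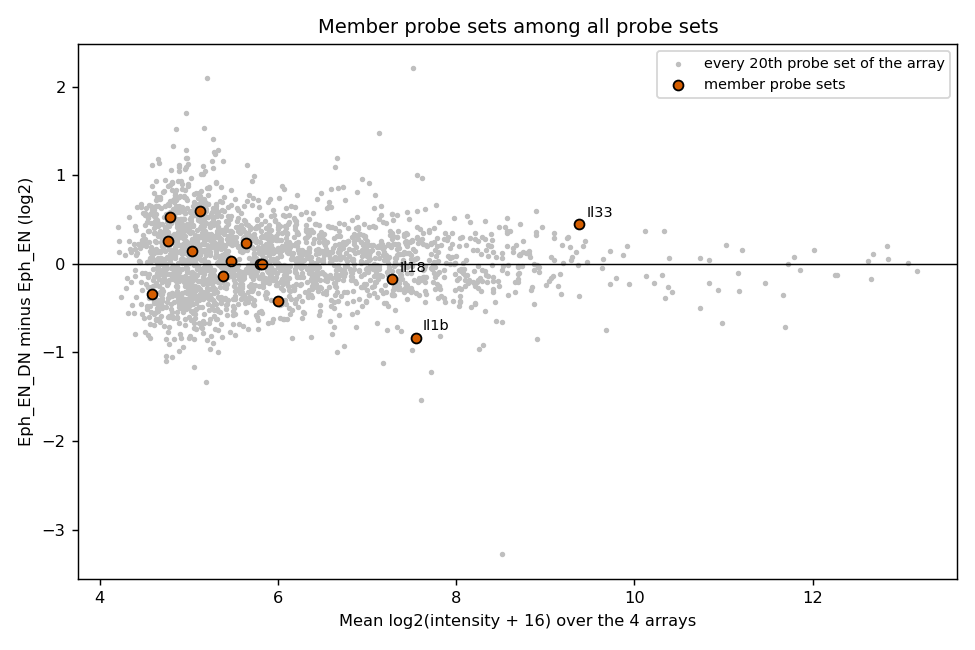
Difference Eph_EN_DN minus Eph_EN against the mean log2(intensity + 16) over the 4 arrays, for the 14 member probe sets (orange) and every 20th probe set of the array (grey). Il1b and Il33 lie near the lower and upper edge of probe sets of their brightness, and the dim members lie within the wide spread of dim probe sets.

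Promoter sequences were set beside these values because TAM67 acts on AP-1. RefSeq windows of 250 bases before and 50 after each transcription start (GRCm38.p6) were at hand for all 10 genes, 14 windows in all. The AP-1 motif TGANTCA, searched on both strands, was found in 5 windows of 5 genes (Il1a, Il1rn, Il6, Il11 and Lif), and 7.81% of all 32851 promoter windows hold it. None of the 5 genes had a probe set above the bacterial controls on all 4 arrays, and the windows of Il1b, Il18, Il33, Tnf and Ptgs2 had no match. The related motif TGACGTCA and the STAT motif TTCNNNGAA were in 0 of the 14 windows and in 1.79% and 8.30% of all. The kappa B consensus, the NF-kappaB site, was in 1 window, that of Il6, and in 4.51% of all. A match is a description of the letters in these windows and no proof of a site. The 4 stretches below show each AP-1 match (capitals) with 12 bases on either side, 5′ to 3′ on the gene's strand, for the genes other than Il6.
Il1a, chr2:129309966-129309996, minus strand, match at -12 to -6: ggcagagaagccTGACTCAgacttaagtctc
Il1rn, chr2:24336707-24336737, plus strand, match at -141 to -135: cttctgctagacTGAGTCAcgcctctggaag
Il11, chr7:4778221-4778251, minus strand, match at -98 to -92: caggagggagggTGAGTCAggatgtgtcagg
Lif, chr11:4257328-4257358, plus strand, match at -228 to -222: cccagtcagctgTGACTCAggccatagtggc

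The whole windows of Il6 and Il1b are shown. They set a window with both an AP-1 and a kappa B match beside that of the gene with the largest difference, which holds neither match. Sites outside the windows or with other letters were not searched. In Il6 the AP-1 match (TGAGTCA, -249 to -243) and the kappa B match (GGGATTTTCC, -44 to -35) are in capitals. In Il1b only a TATA box was found (TATAAA, -31 to -26, left in lower case), a motif in 13.6% of all windows. The AP-1 and kappa B matches of Il6 do not overlap.
Il6, chr5:30012864-30013163, plus strand: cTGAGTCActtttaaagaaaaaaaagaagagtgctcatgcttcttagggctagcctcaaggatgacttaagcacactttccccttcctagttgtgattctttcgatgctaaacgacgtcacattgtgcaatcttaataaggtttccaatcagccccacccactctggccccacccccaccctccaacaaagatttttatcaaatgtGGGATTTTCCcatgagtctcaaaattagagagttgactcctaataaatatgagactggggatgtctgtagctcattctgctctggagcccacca
Il1b, chr2:129371090-129371389, minus strand: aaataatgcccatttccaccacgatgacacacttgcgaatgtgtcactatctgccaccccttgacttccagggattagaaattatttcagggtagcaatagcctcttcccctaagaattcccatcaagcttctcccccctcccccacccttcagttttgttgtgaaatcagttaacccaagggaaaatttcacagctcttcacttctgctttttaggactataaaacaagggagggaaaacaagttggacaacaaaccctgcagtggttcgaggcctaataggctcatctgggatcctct

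The other genes of these pathways were described from 9 lists, with the brightest probe set of each gene. Of 115 genes listed, 101 had a probe set of their own. Those without one include Il1rl1, which encodes the IL-33 receptor, and Il11ra1, Irak4, Ripk1, Chuk, Nfkb1 and Ptgs1. Of the 101, 0 were called (limma adjusted p under 0.05), where 0.462% of all genes were. At an unadjusted p under 0.05 there were 18, or 17.8%, against 8.62% of all genes. Differences were negative for 60, or 59.4%, against 46.3% of all genes, and the median was -0.098 against 0.032. The lists were written with earlier results of these data known, so these shares are a description and were not tested. With each tumour left out in turn, the medians of all lists other than the JAK-STAT3 and prostanoid ones took both signs.

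Among receptors of the IL-1 family and Tnf, 0 of 8 were called, with 3 positive, 5 negative and a median of -0.059. Il18r1, the ligand-binding chain of the IL-18 receptor, read 489 and 697 units in Eph_EN_DN tumours, against 281 and 400 in Eph_EN tumours. The groups did not overlap (0.77 ± 0.21, SE, limma adjusted p = 0.177). Without Eph_EN tumour 2 the difference was 1.02, and without each other tumour it was 0.52 to 1.02. Its partner chain Il18rap, named here after its values were seen, read 399 and 245 units in Eph_EN_DN tumours against 166 and 247 in Eph_EN tumours, with overlap (0.59 ± 0.23, adjusted p = 0.494). Its difference was 0.26 without Eph_EN_DN tumour 1 and 0.92 without Eph_EN_DN tumour 2. Without Eph_EN tumour 1 or 2 it was 0.33 or 0.85. Sigirr, an inhibitory member of the family, read 40.2 and 23.9 units in Eph_EN_DN tumours against 60.6 and 72.8 in Eph_EN tumours (-0.80 ± 0.32, adjusted p = 0.524). Its reading in Eph_EN_DN tumour 2 lay within the bacterial range of that array.

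Of the 4 gp130 family receptors 0 were called, with 3 positive and a median of 0.21 that ranged from -0.14 to 0.42 with each tumour left out. Il6st, gp130 itself, read 736 and 421 units in Eph_EN_DN tumours against 412 and 413 in Eph_EN tumours (0.42 ± 0.21). Osmr, the oncostatin M receptor, read 243 and 203 units in Eph_EN_DN tumours against 278 and 349 in Eph_EN tumours (-0.46 ± 0.20). Of 6 other ligands of these families 0 were called, with 3 positive and 3 negative. Osm, oncostatin M, read 72.4 and 80.9 units in Eph_EN_DN tumours against 48.7 and 37.2 in Eph_EN tumours (0.66 ± 0.29, adjusted p = 0.589). Ltb, lymphotoxin beta, was within the bacterial range (-0.83 ± 0.45).

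Of 7 genes of cytokine processing and decoys 0 were called, with 4 positive, 3 negative and a median of 0.0015. Casp1, the protease that activates IL-1 beta and IL-18, read 1269 and 1161 units in Eph_EN_DN tumours against 999 and 934 in Eph_EN tumours (0.32 ± 0.18). Il18bp, the soluble IL-18 decoy, read 33.2 and 31.1 units in Eph_EN_DN tumours against 69.2 and 52.8 in Eph_EN tumours (-0.67 ± 0.32, limma adjusted p = 0.631). Both Eph_EN_DN readings lay within the bacterial range of their arrays. Of 14 adaptors and NF-kappaB components 0 were called, with 7 positive, 7 negative and a median of -0.045. Myd88, the adaptor of IL-1 family receptors, stood at -0.49 ± 0.21 and Rel, an NF-kappaB subunit within the bacterial range, at 0.61 ± 0.45. Of 19 NF-kappaB feedback and target genes 0 were called, with 7 positive, 12 negative and a median of -0.14, which was 0.0046 without Eph_EN tumour 2 and -0.012 without Eph_EN_DN tumour 2. Vcam1, an adhesion molecule of activated endothelium, read 71.6 and 70.0 units in Eph_EN_DN tumours against 152 and 127 in Eph_EN tumours (-0.84 ± 0.25, limma adjusted p = 0.254). Csf2, the macrophage growth factor GM-CSF, read 22.6 and 67.3 in Eph_EN_DN tumours against 13.5 and 19.5 in Eph_EN tumours (0.81 ± 0.41). Of the Csf2 readings, only the 67.3 of Eph_EN_DN tumour 2 exceeded the highest bacterial control of its array.

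Of 17 JAK-STAT3 components and targets 0 were called, with 4 positive and 13 negative. Their median of -0.23 stayed between -0.33 and -0.18 in the alternatives run, the scalings included. The list's largest values pointed the other way. Hp, the haemoglobin-binding acute phase protein haptoglobin, read 130 and 1049 units in Eph_EN_DN tumours against 106 and 44.1 in Eph_EN tumours (2.21 ± 0.50, SE, limma adjusted p = 0.0592). Lrg1, a glycoprotein also induced in the acute phase, read 108 and 421 units in Eph_EN_DN tumours against 59.7 and 77.2 in Eph_EN tumours (1.47 ± 0.36, adjusted p = 0.0926). Both were far brighter in Eph_EN_DN tumour 2 than in any other tumour. Without that tumour Hp stood at 0.77 and Lrg1 at 0.57. With that tumour kept and 1 of the others left out, Hp stood at 1.70 to 3.64 and Lrg1 at 1.32 to 2.38. With the tumour number as a replicate block both were called (limma adjusted p = 0.0330 and 0.0190), though the labels do not say whether the numbers pair the tumours. Lcn2, the siderophore-binding lipocalin 2, was named after its values were seen. It read 94.4 and 139.9 units in Eph_EN_DN tumours against 265 and 164 in Eph_EN tumours (-0.78, limma adjusted p = 0.321). Its difference was -1.10 without Eph_EN tumour 2 and -0.46 without Eph_EN tumour 1. In Eph_EN_DN tumour 2 adipocyte markers summed to 6044 units, with 1400 in Eph_EN_DN tumour 1, against 552 and 352 in Eph_EN tumours. All 7 of these markers were positive and 4 were called higher (Car3, Fabp4, Adipoq and Retn), none at 0, and their part in the Hp and Lrg1 values was not tested.

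Around Ptgs2, 0 of 19 genes of prostanoid synthesis, transport and reception were called, with 6 positive, 13 negative and a median of -0.12, which was -0.0011 without Eph_EN tumour 1 and -0.019 without Eph_EN tumour 2. Ptger4, a receptor for prostaglandin E2, read 96.5 and 70.0 units in Eph_EN_DN tumours against 133 and 123 in Eph_EN tumours (-0.55 ± 0.25, limma adjusted p = 0.596). Ptger1, another receptor for it, stood at -0.53 ± 0.50 with overlapping groups. Of 7 factors that control the decay of mRNAs, many cytokine transcripts among them, 0 were called. Their median was 0.022, with Rc3h1 at 0.27 ± 0.23 and Zfp36, tristetraprolin, at -0.16 ± 0.29.

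**Figure D4:**
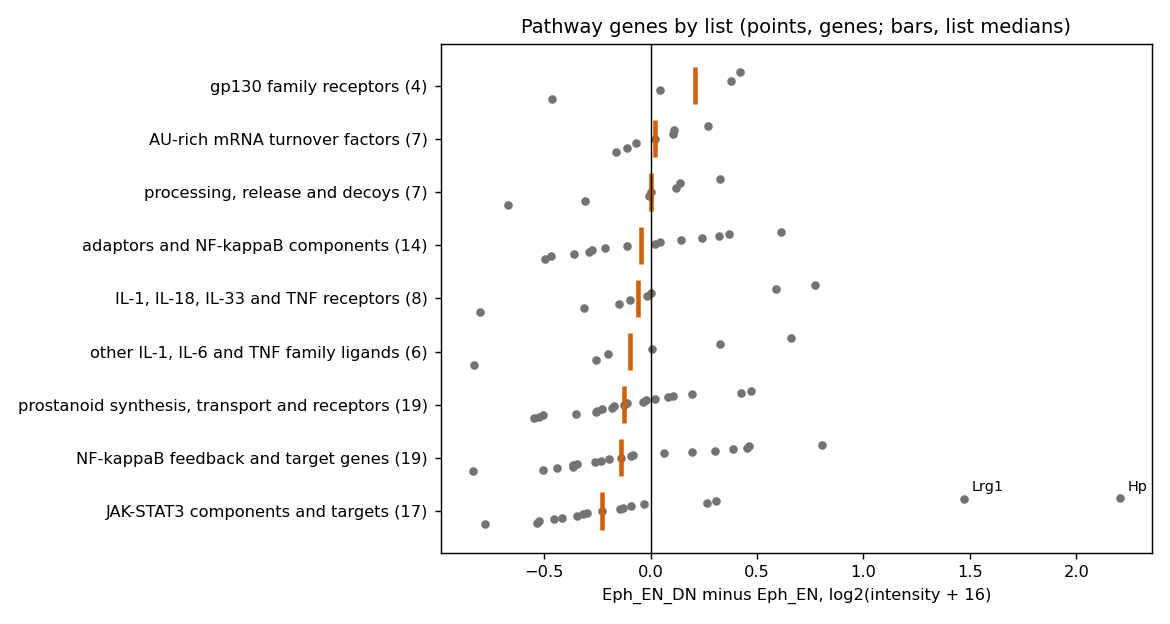
Difference Eph_EN_DN minus Eph_EN in log2(intensity + 16) for each gene (points) of the 9 pathway lists, with the number of genes measured in brackets and the list median as an orange bar. Medians lie between -0.23 and 0.21, and Hp (2.21) and Lrg1 (1.47) stand apart from the rest of their list.

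Signs of RNA quality moved with the groups beside all of these values. For Gapdh, the signal near the 3' end over that near the 5' end stood at 1.17 and 1.11 in Eph_EN_DN tumours and at 0.938 and 1.04 in Eph_EN tumours. The same quotient for the beta-actin control stood at 1.31 and 1.34 in Eph_EN_DN tumours and at 1.11 and 1.19 in Eph_EN tumours. The mean of the 18S ribosomal RNA controls was 6.76 and 7.43 in log2(intensity + 16) in Eph_EN_DN tumours against 5.43 and 6.40 in Eph_EN tumours. Their part in the results was not tested.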

How the data were processed

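RNA from 4 tumours was hybridised to 1 Affymetrix mouse array each. The deposited values are 1 linear intensity per probe set and array; the sources used here do not give how the authors summarised, background-corrected and scaled them. Precision is limited by having 4 arrays. Gene symbols came from the platform annotation and were updated by Entrez ID in a RefSeq table (GRCm38.p6), which changed 0 symbols. Leaving out 64 controls, 45037 probe sets remained, 34945 with 1 symbol, 932 with several and 9160 with none. Of 196 list symbols, 19 were not analysed here.

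The deposited intensities were turned into log2(intensity + 16), which understates changes of dim genes. All probe sets other than controls were fitted with limma 3.58.1 in R 4.3.3 (lmFit, then eBayes with its variance trend on intensity). Tests were two-sided, and a call needed a p under 0.05 after Benjamini-Hochberg adjustment. No filter was used, so that dim members were kept. Gene lists use each gene's brightest probe set. Named list genes were those called or, with none called, the 2 with the largest difference; others are named as chosen after their values were seen. No gene was named for likeness to a member, since 4 arrays cannot rank likeness. The members and lists were chosen with earlier results of these data known. Alternatives were filters leaving out the dimmest 40% or 60%, pseudocounts of 1 and 64, quantile normalization, centring of each array on its median, the brightest or the averaged probe sets of a gene, no intensity trend, a robust variance, a replicate block, each tumour left out, and an adjusted p under 0.10. Where 1 tumour was dropped, a probe set's own spread came from the other group alone. The variance trend over all probe sets entered those fits too. Their p-values and calls thus do not measure the spread between tumours of the group left with 1. Plots were drawn with matplotlib 3.10.9.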

Additional observations from a re-analysis of the deposited data

How the results depend on the processing

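No member probe set was called in any alternative except Il1b, lower without Eph_EN tumour 2, so the count of members called lower ranged from 0 to 1 with a tumour left out. Leaving out a tumour gave values of both signs for Il11 (-0.33 to 0.61), Il6 (-0.24 to 1.42), Tnf (-0.32 to 0.83), the Il1rn probe sets 1423017_a_at (-1.03 to 0.35), 1425663_at (-0.26 to 0.25) and 1451798_at (-0.48 to 0.21), the Lif probe sets 1421207_at (-0.081 to 0.13, and -0.082 with quantile normalization and -0.072 with median centring) and 1450160_at (-0.079 to 0.072), and Ptgs2 1417263_at (-0.057 to 0.53). Il1b, Il18, Il33 and Ptgs2 1417262_at kept their sign in every alternative that gave them a value. With a tumour left out this was fixed in advance, as their groups did not overlap. Il1a kept its sign too, but ranged from 0.0040 to 1.058 with a tumour left out. Of the pathway genes, 2 were called higher (Hp and Lrg1) and 0 lower at an adjusted p under 0.10.

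Over all probe sets 36 were called higher and 115 lower. The counts were 15 and 46 with the dimmest 40% left out, 14 and 43 with 60% left out, 1 and 13 with averaged probe sets per gene, 16 and 51 with the brightest probe set of each gene, 0 and 0 without the variance trend (Il1b adjusted p = 0.783 in limma; 2863 probe sets had an unadjusted p under 0.05), 62 and 144 with a robust variance, 60 and 158 at an adjusted p under 0.10, and 31 to 417 and 38 to 255 with a tumour left out. The cause was not tested; the first 4 also test fewer features. Both groups have tumours numbered 1 and 2, whose deviations from the group means correlated at 0.0070 over probe sets. This value cannot exclude a shared batch, and the labels do not say what the number stands for. With that number as a replicate block, 38 probe sets were higher and 100 lower. No member was called then, and 2 pathway genes were called higher, Hp and Lrg1. Signal over background limits what can be said of the 11 member probe sets not above the bacterial controls on all arrays.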

Other observations

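Of the 14 member probe sets, 7 were highest in Eph_EN tumour 1, 5 in Eph_EN_DN tumour 2, and 1 each in Eph_EN_DN tumour 1 and Eph_EN tumour 2, while over all probe sets Eph_EN tumour 1 was highest in 17.4% and Eph_EN_DN tumour 2 in 30.1%. In Eph_EN_DN tumour 2 these were Il1a, Il6, Tnf, Il33 and Ptgs2 1417263_at, the first 3 of them cytokines that overlapped between the groups. Eph_EN_DN tumour 2 was also lowest in 5 of the 14 (23.6% of all probe sets), as often as it was highest, and Eph_EN tumour 2 was lowest in 6 (27.2% of all). This pattern was noticed in the data and has no test.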
